A study of Mus musculus with 33 samples.

Results

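Ribosome biogenesis genes were followed across 33 mouse prostate tumours: 34 genes for nucleolar proteins and factors of RNA polymerases I and III, picked by gene symbol from the 48795 genes of the expression table. All 34 were found once each. Of these, 33 had at least 0.5 FPKM (fragments scaled to exon length and library size) in at least 5 tumours and were tested with 15846 genes in all. The exception was Wdr74. The tumours came from Myc-CaP cells, a prostate cancer line from a mouse that carries a MYC transgene in the prostate epithelium, grown under the skin of both flanks of immunocompetent FVB male mice. Treatment started at 50 mm3 and lasted 3 weeks. ESK981, an oral kinase inhibitor whose targets include PIKfyve, a lipid kinase of endosomes and lysosomes, was given by gavage at 15 mg/kg on 5 days a week, and an antibody to the checkpoint receptor PD-1 by intraperitoneal injection at 200 µg on 3 days a week. The 4 groups were vehicle (vehicle with isotype antibody, 10 tumours), ESK981 (8 tumours), anti-PD-1 (7 tumours) and the combination of both agents (8 tumours), each from 5 mice. All tumours carry the MYC-driven background, and all come from 1 cell line. The mouse was taken as the replicate, and tumours are named by group, mouse and flank (5R is the right tumour of mouse 5).

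Ribosome biogenesis starts in the nucleolus, where RNA polymerase I transcribes the ribosomal RNA precursor, small nucleolar ribonucleoproteins guide its chemical modification, and assembly factors fold, cut and pack it into the small and large subunits. RNA polymerase III adds the smallest ribosomal RNA and the transfer RNAs. The transcription factor MYC binds E-boxes, among them CACGTG, at many of these genes, and MYC-driven tumours are known for large nucleoli. The Myc-CaP transgene is human MYC, so that the mouse Myc row of the table need not measure the driver.

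The libraries held between 9.9e+06 and 3.24e+07 fragments assigned to genes, as recovered from the FPKM values. Library composition differed between groups. The 3 ribosomal-RNA-like genes together reached a median of 1.75e+05 FPKM in vehicle tumours and 2.8e+04 with ESK981, 3.54e+04 in the combination and 6.49e+04 with anti-PD-1, and all 3 were lower with ESK981 (limma). Summed mitochondrial RNA had medians of 2.13e+04, 6440, 9330 and 7780 FPKM in the same order, with vehicle 5R (9.09e+04) and anti-PD-1 4R (5.27e+04) highest in their groups, and 12 mitochondrial genes were lower with ESK981. Vehicle 5R, combination 5R and anti-PD-1 4R stood apart with the lowest scale factors of the series, 0.597, 0.649 and 0.691, against 1.15 at the highest. Each also held the most ribosomal-RNA-like FPKM of its group, at 2.4e+05, 5e+05 and 1.79e+05 in that order. A scale factor is the median-of-ratios of a library over the genes tested that were above 0 FPKM in every tumour. Dividing by it removes a shift common to all genes. The run labels place 9 vehicle tumours on 1 flow cell and the other vehicle tumour, 5R, together with all 23 treated tumours on a second. Flow cell and treatment therefore cannot be told apart except through vehicle 5R. Lanes of the second flow cell also followed treatment. All anti-PD-1 tumours were on lane 6, most combination tumours on lane 5 and most ESK981 tumours on lane 4. Lane and treatment can therefore hardly be told apart between treated groups. Of the epithelial markers, Foxa1 (13.3 to 57.7 FPKM) was present in every tumour, as were Krt8 and Krt19, whereas Epcam (at most 0.203 FPKM), Cdh1 (0.86) and Krt18 (1.42) were near 0 in all or most. Summed FPKM of 14 leukocyte markers ran from 136 to 838 in vehicle tumours, 86.8 to 152 with ESK981, 70 to 809 in the combination and 186 to 458 with anti-PD-1. Those of stroma and vessels had medians of 129, 56, 57.4 and 99.9, with 4 genes lower and 1 (Cdh5) higher with ESK981. The part of library composition and of these cells in the differences below was not tested. In bulk tumours, fewer cells of a type and less RNA per cell cannot be told apart.

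No ribosome biogenesis gene passed the test in any treatment group. With limma on log2(FPKM + 0.5) of mouse means and p-values adjusted over all genes, 0 of 33 genes were called at an adjusted p under 0.05 with ESK981 against vehicle, where 14.4% of all genes tested were. The count was 0 of 33 in the combination (0.606% of all genes) and 0 of 33 with anti-PD-1 (0.783% of all genes). At an unadjusted p under 0.05 there were 3, 2 and 2 of the 33, next to 31.8%, 12.4% and 13.2% of all genes. The median log2 difference over the 33 genes was 0.13 with ESK981 against 0.11 for all genes tested, 0.05 against 0.03 in the combination and 0.04 against 0.13 with anti-PD-1. Positive values were held by 26, 21 and 20 of the 33, next to 62.4%, 54.2% and 72.1% of all genes. After scaling by library, described above, the positive members were 16, 17 and 11, next to 49.9%, 50.2% and 51.8% of all genes, with medians of -0.01, 0.02 and -0.11. The 95% interval of the difference lay within a 2-fold change either way for 33 of 33 genes with ESK981, for 31 in the combination and for 32 with anti-PD-1. Gar1 and Fbl were the exceptions in the combination, and Gar1 with anti-PD-1. These 2 small nucleolar ribonucleoprotein genes had the largest negative differences of the list in all 3 comparisons. All 3 share the vehicle mice.

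**Figure D1:**
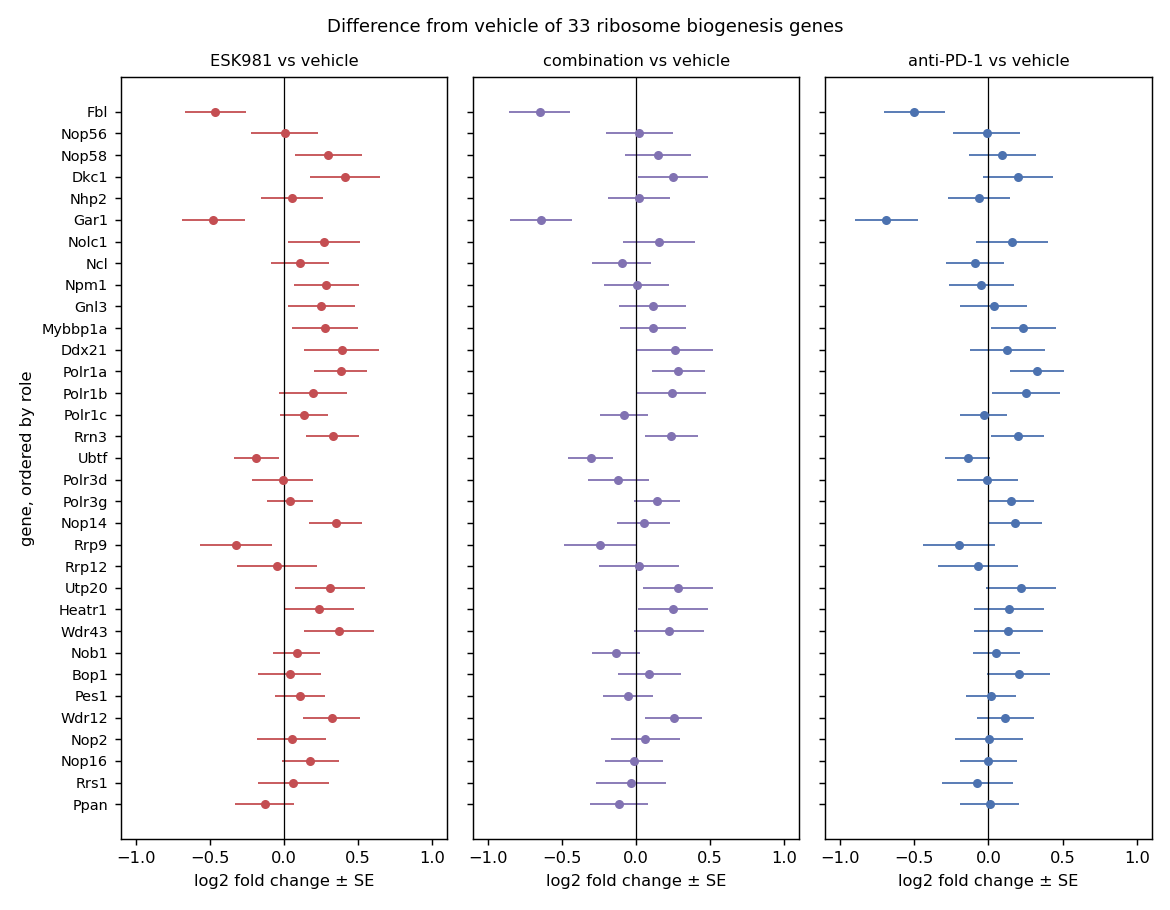
Log2 difference from vehicle (x axis, ± SE, n = 5 mice per group) of the 33 ribosome biogenesis genes that passed the filter, ordered by role (y axis), with ESK981, in the combination and with anti-PD-1. Most genes lie near 0, while Fbl and Gar1 lie lowest in each panel, from -0.46 to -0.69.

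Promoter letters were read for 28 of the 34 genes from RefSeq (GRCm38.p6), 250 bases before to 50 after each start. CACGTG, a palindrome that reads alike on both strands, was in 6 of 28 promoters (21.4%), against 8.09% of 27025 promoters of all genes and 11.9% of those of genes tested. CACGCG or its reverse complement CGCGTG, an E-box variant, was in 10 of 28 (35.7%), against 10.5% and 19.9%. The 2 forms of the variant can overlap each other in 1 run of letters. These matches are descriptions and were not tested. The windows below, of 60 bases each and wholly upstream of the start, show the motif in capitals in 4 members.

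Nop2, chr6:125131796-125131855 (+ strand): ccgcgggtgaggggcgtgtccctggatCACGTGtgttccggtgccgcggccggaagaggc
Rrn3, chr16:13780457-13780516 (+ strand): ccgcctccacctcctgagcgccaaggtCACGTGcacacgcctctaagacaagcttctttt
Rrn3, chr16:13780624-13780683 (+ strand): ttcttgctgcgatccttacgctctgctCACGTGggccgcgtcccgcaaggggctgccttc
Nolc1, chr19:46075787-46075846 (+ strand): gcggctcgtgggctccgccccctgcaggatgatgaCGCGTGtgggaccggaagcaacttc
Polr1c, chr17:46248188-46248247 (- strand): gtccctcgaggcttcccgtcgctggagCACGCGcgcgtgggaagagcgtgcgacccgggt

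Nop2, a methyltransferase of the large-subunit ribosomal RNA, holds CACGTG with its first base 60 bases before the start (position -60). Rrn3 holds it at positions -215 and -48. Nolc1 holds the variant at position -25 and Polr1c at -175, where CACGCG runs on into CGCGTG. The levels of these genes are given with their roles.

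Of the RNA polymerase I genes, 4 of 5 had positive differences with ESK981 (3 of 5 on scaled values), and 0 of 5 were called. Polr1a ran from 2.59 to 9.03 (median 6.18) FPKM in vehicle tumours, 6.47 to 9.49 (median 7.9) with ESK981, 5.02 to 10.2 (median 7.93) in the combination and 3.37 to 9.43 (median 8.23) with anti-PD-1. It encodes the largest polymerase I subunit. Against vehicle, the log2 difference of Polr1a was 0.38 ± 0.18 (adjusted p = 0.147) with ESK981, 0.28 ± 0.18 (adjusted p = 0.531) in the combination and 0.33 ± 0.18 (adjusted p = 0.442) with anti-PD-1. Low tumours were vehicle 5R and anti-PD-1 4R, and the groups overlapped. Rrn3 ran from 5.53 to 13.2 (median 10.6) FPKM in vehicle tumours, 11.4 to 15.2 (median 12.5) with ESK981, 8.62 to 16.8 (median 13.3) in the combination and 4.94 to 15.2 (median 12.5) with anti-PD-1. Rrn3 is the initiation factor that brings polymerase I to the promoter, and its windows are shown above. Its log2 difference was 0.33 ± 0.18 (adjusted p = 0.213) with ESK981, where all 5 mice were above all 5 vehicle mice, as 15.5% of all genes tested were separated in one direction or the other. In the combination the difference of Rrn3 was 0.24 ± 0.18 (adjusted p = 0.61) and with anti-PD-1 0.20 ± 0.18 (adjusted p = 0.648), with overlapping mice. Polr1b ran from 2.26 to 6.77 (median 4.39) FPKM in vehicle tumours, 3.85 to 6.43 (median 5.02) with ESK981, 3.29 to 7.93 (median 5.72) in the combination and 1.75 to 7.57 (median 5.56) with anti-PD-1. Polr1c ran from 7.71 to 12.8 (median 10.2) FPKM in vehicle tumours, 9.1 to 13.2 (median 11.3) with ESK981, 6.41 to 13.7 (median 10.3) in the combination and 7.8 to 11 (median 10.2) with anti-PD-1. Polr1b is the partner of Polr1a in the catalytic core and Polr1c a subunit shared with polymerase III. Both overlapped vehicle in every group, with log2 differences from -0.08 ± 0.16 (Polr1c in the combination) to 0.25 ± 0.23 (Polr1b with anti-PD-1). Ubtf ran from 7.62 to 14.4 (median 12.8) FPKM in vehicle tumours, 8.38 to 13.2 (median 11.2) with ESK981, 6.84 to 12.1 (median 10.7) in the combination and 7.81 to 13.3 (median 11.5) with anti-PD-1. Ubtf, the upstream binding factor that keeps ribosomal DNA open, was the one gene of this role with negative differences in all 3 comparisons. Against vehicle, the log2 difference of Ubtf was -0.19 ± 0.15 (adjusted p = 0.415) with ESK981, -0.31 ± 0.15 (adjusted p = 0.418) in the combination and -0.14 ± 0.15 (adjusted p = 0.706) with anti-PD-1. A flow cell term, resting on vehicle 5R, turned these positive on unscaled values. It did the same to all 32 negative differences among the 99 of the genes tested here. On scaled values that term left Ubtf negative, at -0.27 with ESK981, -0.32 in the combination and -0.24 with anti-PD-1.

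Of the RNA polymerase III subunits, Polr3g was the least abundant of the 33 genes. Polr3d ran from 3.23 to 5.82 (median 4.84) FPKM in vehicle tumours, 3.998 to 5.35 (median 4.69) with ESK981, 2.35 to 6.6 (median 4.52) in the combination and 2.21 to 6.55 (median 4.48) with anti-PD-1. Polr3g ran from 0.406 to 1.22 (median 0.828) FPKM in vehicle tumours, 0.619 to 1.26 (median 0.831) with ESK981, 0.485 to 1.42 (median 1.07) in the combination and 0.842 to 1.06 (median 0.941) with anti-PD-1. Polr3d is a core subunit and Polr3g an alternative one. The fitted differences of both lay between -0.12 ± 0.21 and 0.15 ± 0.15 in the 3 comparisons with vehicle, and all groups overlapped.

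Small nucleolar ribonucleoproteins gave the widest differences, from 2 members. Gar1 ran from 10.4 to 21.4 (median 19.1) FPKM in vehicle tumours, 8.58 to 19.3 (median 13) with ESK981, 6.26 to 19.6 (median 12.5) in the combination and 8.04 to 13.4 (median 11.5) with anti-PD-1. Gar1 is a core protein of the H/ACA particles that make pseudouridine. Against vehicle, the log2 difference of Gar1 was -0.48 ± 0.21 (adjusted p = 0.125) with ESK981, -0.64 ± 0.21 (adjusted p = 0.194) in the combination and -0.69 ± 0.21 (adjusted p = 0.118) with anti-PD-1. All 5 mice lay below all 5 vehicle mice with ESK981 and with anti-PD-1, where 3.67% of all genes were separated, and not in the combination (1.88%). By tumour, 9 vehicle values lay at or above 17.3 FPKM and vehicle 5R at 10.4, while the 7 anti-PD-1 tumours did not exceed 13.4. Fbl ran from 8.33 to 17.3 (median 13.4) FPKM in vehicle tumours, 5.24 to 12.8 (median 11.2) with ESK981, 5.05 to 12.6 (median 9.5) in the combination and 6.99 to 11.2 (median 9.18) with anti-PD-1. Fbl is fibrillarin, the methyltransferase of the box C/D particles. Against vehicle, the log2 difference of Fbl was -0.46 ± 0.21 (adjusted p = 0.129) with ESK981, -0.65 ± 0.21 (adjusted p = 0.175) in the combination and -0.50 ± 0.21 (adjusted p = 0.291) with anti-PD-1. Vehicle 5R (8.33 FPKM) was again the low vehicle tumour, and ESK981 1R (5.24), ESK981 2R (6.17) and combination 5R (5.05) were the lowest of all. Without ESK981 1R and 2R, which leaves 4 mice in that group, the ESK981 difference was -0.17 ± 0.20 for Fbl and -0.28 ± 0.22 for Gar1 (limma).

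After median-of-ratios scaling, Fbl separated the vehicle tumours from all others. The 10 vehicle tumours held 12.7 to 15.5 scaled FPKM, the 8 ESK981 tumours 5.29 to 11.8, the 8 combination tumours 6.44 to 11.2 and the 7 anti-PD-1 tumours 6.75 to 10.5. No treated tumour reached the lowest vehicle tumour, a split found in this direction for 2 genes (Fbl and Ube2g2), 0.0126% of the 15846 tested. Another 3 genes (0.0189%) were higher in all treated tumours. Scaled Gar1 lay at 16.7 to 22.4 in vehicle tumours, 8.66 to 17.7 with ESK981, 9.02 to 17.4 in the combination and 8.75 to 11.9 with anti-PD-1. Only the anti-PD-1 tumours were free of overlap with vehicle. Vehicle 5R, on the flow cell of the treated tumours, was at 14.0 for Fbl and 17.5 for Gar1, within the range of the other 9 vehicle tumours. On scaled values limma called Fbl lower in all 3 comparisons, by -0.61 ± 0.14 (adjusted p = 0.0043), -0.69 ± 0.14 (0.00925) and -0.64 ± 0.14 (0.0199) in log2 with ESK981, in the combination and with anti-PD-1. Gar1 was called lower by -0.62 ± 0.13 (adjusted p = 0.00316), -0.68 ± 0.13 (0.00842) and -0.83 ± 0.13 (0.00384). With these calls, Ubtf was lower with ESK981 (-0.33 ± 0.08, adjusted p = 0.00468) and in the combination (-0.34 ± 0.08, adjusted p = 0.0163), and Rrp9 with ESK981 (-0.46 ± 0.16, adjusted p = 0.0434). That made 4, 3 and 2 members called on the scaled values, where 14.4%, 3.39% and 1.53% of all genes were called lower. A flow cell term on scaled values, resting on vehicle 5R, kept the sign of the Fbl and Gar1 differences with adjusted p from 0.138 to 0.278, and on unscaled values it turned all 6 to positive values from 0.05 to 0.30, none of them called.

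The members called, and the share of all genes called, changed with the setting. Scaling to the protein-coding total called 4 with ESK981 (28.1% of all genes), 2 in the combination (9.62%) and 2 with anti-PD-1 (5.06%), among them Gar1 and Fbl lower in all 3 comparisons. Without the 3 libraries of low scale factor, Gar1, Fbl and Polr1a were called with ESK981 (30.3% of all genes) and with anti-PD-1 (11.2%), Gar1 and Fbl lower and Polr1a higher. With only the groups compared in the fit, Gar1 and Nop14 were called with ESK981 (19.8%) and Gar1 with anti-PD-1 (0.688%). Without combination mouse 5, Gar1 was called with ESK981 (23.9%) and with anti-PD-1 (2.04%). A flow cell term called 13, 11 and 7 members higher, next to 35.0%, 27.0% and 27.1% of all genes, and 3 lower for the interaction (24.9%). On scaled values that term called Polr1a higher in all 3 comparisons and Heatr1 in the combination (8.05%, 6.77% and 3.39% of all genes).

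**Figure D2:**
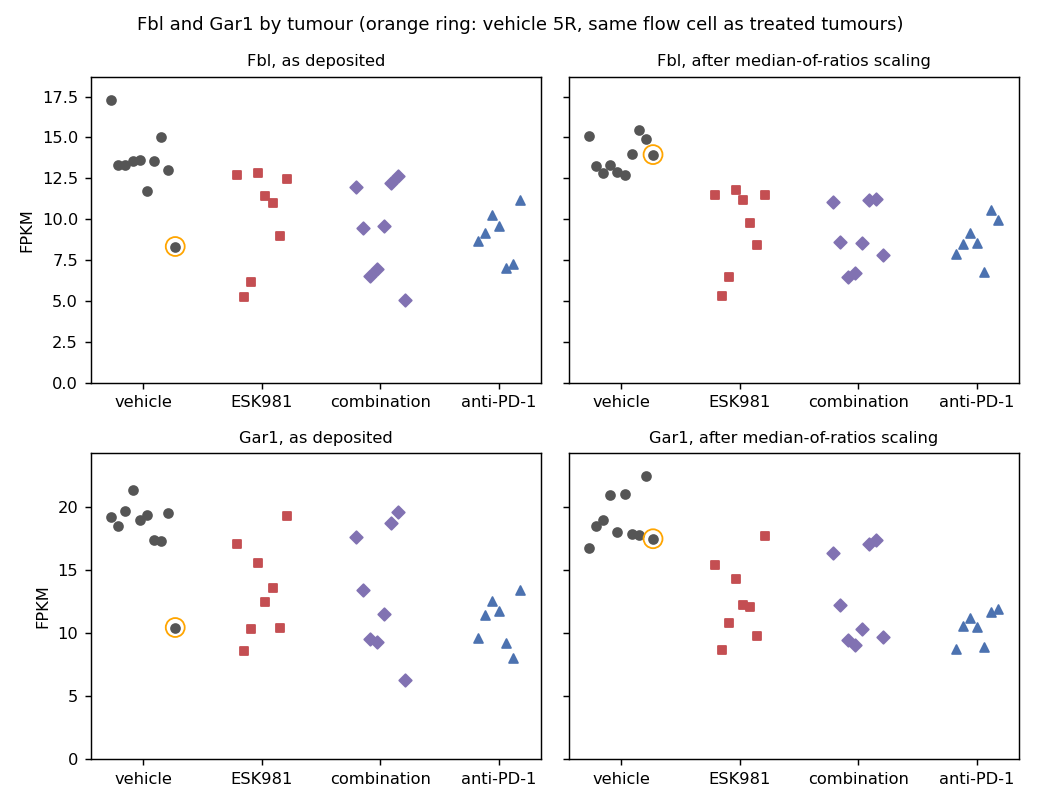
FPKM of Fbl (top) and Gar1 (bottom) in each tumour by group, as deposited (left) and after median-of-ratios scaling (right), 1 point per tumour, with vehicle 5R ringed. On the scaled axis all 23 treated tumours lie below 11.9 for Fbl and all 10 vehicle tumours above 12.6, while Gar1 overlaps in the ESK981 and combination groups.

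The other 5 small nucleolar ribonucleoprotein genes had differences with ESK981 above 0 (Nop56 and Nhp2 below 0 on scaled values), and their difference from Fbl and Gar1 was not tested. Nop56 ran from 8.99 to 31.3 (median 20.6) FPKM in vehicle tumours, 16.2 to 28 (median 21.8) with ESK981, 12.1 to 31.7 (median 22.5) in the combination and 9.42 to 29.99 (median 20.7) with anti-PD-1. Nop58 ran from 3.39 to 9.19 (median 6.36) FPKM in vehicle tumours, 6.15 to 11.6 (median 7.35) with ESK981, 3.89 to 11.9 (median 7.77) in the combination and 2.62 to 8.97 (median 7.02) with anti-PD-1. Nop56 and Nop58 are the core partners of fibrillarin in the box C/D particle, and both overlapped across all groups. Their log2 differences with ESK981 were 0.01 ± 0.23 and 0.30 ± 0.23. Dkc1 ran from 4.12 to 11.5 (median 7.03) FPKM in vehicle tumours, 6.7 to 15.2 (median 10.1) with ESK981, 5.67 to 15 (median 8.64) in the combination and 3.17 to 10.8 (median 8.79) with anti-PD-1. Nhp2 ran from 8.99 to 28.9 (median 21.6) FPKM in vehicle tumours, 15.1 to 26.5 (median 23.4) with ESK981, 14.1 to 29.8 (median 22.1) in the combination and 8.79 to 23.8 (median 20.5) with anti-PD-1. Dkc1 (dyskerin) is the pseudouridine synthase and Nhp2 a core partner of Gar1 in the H/ACA particle. Dkc1 had the largest positive value of all members with ESK981, 0.41 ± 0.24 (adjusted p = 0.233), and Nhp2 was at 0.05 ± 0.21. Nolc1 ran from 6.98 to 21.4 (median 14.6) FPKM in vehicle tumours, 11.5 to 22 (median 18.8) with ESK981, 10.1 to 25.6 (median 17.5) in the combination and 5.3 to 21.1 (median 16.1) with anti-PD-1. Nolc1 (Nopp140), which gathers these particles and carries the variant motif shown above, was at 0.27 ± 0.24 with ESK981.

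Nucleolar chaperones and regulators held the most abundant members. Npm1 ran from 164 to 253 (median 206) FPKM in vehicle tumours, 164 to 381 (median 279) with ESK981, 137 to 371 (median 215) in the combination and 166 to 222 (median 203) with anti-PD-1. Ncl ran from 49.7 to 77.6 (median 58.6) FPKM in vehicle tumours, 42.8 to 95.2 (median 67.2) with ESK981, 33.6 to 90.7 (median 62.1) in the combination and 44.8 to 59.8 (median 57.1) with anti-PD-1. Nucleophosmin (Npm1) and nucleolin (Ncl) are histone- and RNA-binding nucleolar chaperones. ESK981 tumours reached the highest Npm1 value, with a difference of 0.29 ± 0.22 (adjusted p = 0.382), and overlapped vehicle. Gnl3 ran from 19.2 to 34.8 (median 26.4) FPKM in vehicle tumours, 23.2 to 41.6 (median 30.2) with ESK981, 15.3 to 49.1 (median 32.6) in the combination and 12.7 to 34.1 (median 27) with anti-PD-1. Mybbp1a ran from 12.4 to 36 (median 23.2) FPKM in vehicle tumours, 18.8 to 36.3 (median 32.4) with ESK981, 18 to 37.8 (median 26.6) in the combination and 11.9 to 35.5 (median 30.1) with anti-PD-1. Ddx21 ran from 8.2 to 29.3 (median 19.5) FPKM in vehicle tumours, 19.7 to 34.6 (median 25.2) with ESK981, 14.4 to 38.7 (median 27.1) in the combination and 5.79 to 26.9 (median 23.6) with anti-PD-1. Gnl3 (nucleostemin) is a nucleolar GTPase, Mybbp1a a nucleolar transcription regulator and Ddx21 an RNA helicase. All 5 genes of the role were positive with ESK981, from 0.11 ± 0.20 (Ncl) to 0.39 ± 0.25 (Ddx21), and 0 of 5 were called. Ncl was below 0 on scaled values. For Ddx21, anti-PD-1 4R (5.79 FPKM) and vehicle 5R (8.2 FPKM) lay far below all other tumours.

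Small-subunit processing genes spread to both sides of 0. Nop14 ran from 8.18 to 15.2 (median 10.9) FPKM in vehicle tumours, 12.2 to 16.7 (median 13.6) with ESK981, 7.05 to 18.3 (median 11.9) in the combination and 8.29 to 14.9 (median 12.6) with anti-PD-1. Heatr1 ran from 2.64 to 11.5 (median 7.83) FPKM in vehicle tumours, 7.12 to 11.4 (median 9.06) with ESK981, 5.41 to 13.4 (median 9.85) in the combination and 2.3 to 11 (median 8.98) with anti-PD-1. Utp20 ran from 2.12 to 8.13 (median 5.19) FPKM in vehicle tumours, 4.4 to 8.52 (median 7.2) with ESK981, 4.003 to 9.3 (median 6.94) in the combination and 1.42 to 8.2 (median 6.53) with anti-PD-1. Nop14, Heatr1 and Utp20 are parts of the small subunit processome. Nop14 had a log2 difference of 0.35 ± 0.18 (adjusted p = 0.184) with ESK981, and 0.05 ± 0.18 and 0.18 ± 0.18 in the other groups. Wdr43 ran from 9.78 to 22 (median 15.6) FPKM in vehicle tumours, 16.2 to 25.9 (median 18.6) with ESK981, 9.84 to 31.1 (median 20.1) in the combination and 6.12 to 23.6 (median 18.1) with anti-PD-1. Rrp9 ran from 3.66 to 10.5 (median 7.73) FPKM in vehicle tumours, 3.72 to 9.38 (median 5.39) with ESK981, 3.09 to 8.41 (median 6.31) in the combination and 2.92 to 8.27 (median 6.11) with anti-PD-1. Rrp12 ran from 2.36 to 10 (median 7.81) FPKM in vehicle tumours, 4.88 to 10.2 (median 6.68) with ESK981, 4.23 to 11.2 (median 7.19) in the combination and 1.66 to 10.7 (median 6.91) with anti-PD-1. Wdr43 is a further processome protein, Rrp9 binds the guide RNA of the processome and Rrp12 helps to export the small subunit. Rrp9 was at -0.33 ± 0.24 (adjusted p = 0.374) with ESK981, and its 3 comparisons with vehicle were all negative. Nob1 ran from 4.03 to 9.32 (median 6.47) FPKM in vehicle tumours, 4.7 to 8.47 (median 7.32) with ESK981, 4.2 to 8.44 (median 5.62) in the combination and 4.28 to 7.39 (median 6.98) with anti-PD-1. Nob1, the nuclease that makes the final cut of the small-subunit RNA, had differences between -0.14 ± 0.16 and 0.09 ± 0.16.

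Large-subunit processing genes had median log2 differences of 0.06, -0.01 and 0.01 with ESK981, in the combination and with anti-PD-1. Bop1 ran from 3.3 to 14.6 (median 9.86) FPKM in vehicle tumours, 6.52 to 13.3 (median 9.45) with ESK981, 7.75 to 11.9 (median 9.62) in the combination and 3.997 to 14.9 (median 10.8) with anti-PD-1. Pes1 ran from 9.12 to 17.2 (median 13) FPKM in vehicle tumours, 11 to 16.1 (median 14.2) with ESK981, 8.09 to 17.4 (median 14.5) in the combination and 8.33 to 14.6 (median 13.5) with anti-PD-1. Wdr12 ran from 0.777 to 2.47 (median 1.81) FPKM in vehicle tumours, 1.57 to 2.96 (median 2.18) with ESK981, 1.2 to 3.27 (median 2.22) in the combination and 0.621 to 2.68 (median 1.9) with anti-PD-1. Bop1, Pes1 and Wdr12 form 1 complex. Wdr12 had the largest difference of this role, 0.32 ± 0.19 (adjusted p = 0.261) with ESK981, and the 3 partners overlapped vehicle in every group. Nop2 ran from 4.52 to 16.6 (median 12.5) FPKM in vehicle tumours, 9.3 to 15.7 (median 11.6) with ESK981, 7.52 to 19.2 (median 12.7) in the combination and 4.05 to 15.5 (median 12.6) with anti-PD-1. Ppan ran from 6.13 to 15.1 (median 10.7) FPKM in vehicle tumours, 7.39 to 13.6 (median 9.25) with ESK981, 6.57 to 13.1 (median 11.2) in the combination and 4.87 to 15 (median 10.9) with anti-PD-1. Rrs1 ran from 5.92 to 12.4 (median 9.49) FPKM in vehicle tumours, 7.66 to 13.8 (median 9.94) with ESK981, 4.99 to 16.7 (median 10.3) in the combination and 3.88 to 14.3 (median 9.57) with anti-PD-1. Ppan and Rrs1 are assembly factors of the large subunit, as is Nop16. Between -0.13 ± 0.20 (Ppan with ESK981) and 0.06 ± 0.24 (Rrs1 with ESK981), these differences were smaller than their standard errors. Nop16 ran from 4.16 to 9.53 (median 6.45) FPKM in vehicle tumours, 6.17 to 9.41 (median 7.83) with ESK981, 3.75 to 9.56 (median 7.72) in the combination and 3.21 to 8.52 (median 6.79) with anti-PD-1. Nop16 was at 0.18 ± 0.19 with ESK981. Wdr74, a partner of the nuclear exosome in large-subunit assembly, ran from 0 to 0.142 FPKM, with tumours at 0 in all 4 groups, and was not tested.

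No ribosome biogenesis gene passed the test between treated groups. These groups also differed in lane, as described above, and the part of lane was not tested. In the combination against ESK981 alone, 0 of 33 genes were called (0.0% of all genes), with a median of -0.12 against -0.09 for all genes and Nop14 at -0.30 ± 0.18 (adjusted p = 0.707) as the smallest p. In the combination against anti-PD-1 alone, 0 of 33 were called (0.0% of all genes), with a median of -0.004 against -0.09. ESK981 against anti-PD-1 alone gave 0 of 33 (0.00631% of all genes), with a median of 0.10 against -0.01 and Npm1 at 0.33 ± 0.22 (adjusted p = 0.51). All 33 genes had 95% intervals within a 2-fold change in each of these 3 comparisons. For the interaction, how far the effect of ESK981 shifted when anti-PD-1 was also given, 0 of 33 genes were called (0.0252% of all genes), with a median of -0.18 against -0.21. The interaction was measured less well: 28 of 33 intervals lay within a 2-fold change, and Nop14 (-0.48 ± 0.25, adjusted p = 0.31), Gar1 (0.52 ± 0.30, adjusted p = 0.339), Ddx21, Dkc1 and Mybbp1a reached beyond it. At an unadjusted p under 0.05, limma found 0 of the 33 in each of these 4 comparisons, next to 7.74%, 5.94%, 13.8% and 18.2% of all genes in the order given.

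The genes varied together between tumours. The range from the lowest to the highest tumour was narrowest for Ubtf (2.1-fold) and widest for Rrp12 (6.79-fold) among the 33. Over the 20 mice, the median pairwise correlation among the 33 genes was 0.779 (528 pairs, from 0.21 to 0.97), against 0.288 over pairs of all genes tested. After scaling it was 0.507, against -0.00174. The values share their libraries, and a shift common to a library enters both. On unscaled values Nop16 (mean correlation of 0.835 with the others) and Rrs1 (0.834) followed the rest most closely, and Fbl (0.538) and Gar1 (0.540) least. After scaling, Rrs1 (0.637) and Nolc1 (0.623) were highest, and Ubtf (0.208) and Polr3g (0.213) lowest. Scaled Fbl was at 0.281 and Gar1 at 0.316. The mean log2(FPKM + 0.5) over the 33 genes, taken as their joint level, was 3.45 ± 0.28 in vehicle mice, 3.57 ± 0.18 with ESK981, 3.47 ± 0.44 in the combination and 3.48 ± 0.32 with anti-PD-1 (SD, n = 5 mice each). It ran from 2.70 to 3.94 in vehicle tumours (median 3.51), 3.26 to 3.90 with ESK981 (3.66), 2.87 to 4.06 in the combination (3.64) and 2.51 to 3.84 with anti-PD-1 (3.55). The lowest tumours were anti-PD-1 4R, vehicle 5R and combination 5R, the libraries with the lowest scale factors, and over mice the joint level followed the scale factor with r = 0.861. Scaled group means were 3.52 ± 0.10, 3.51 ± 0.14, 3.51 ± 0.24 and 3.41 ± 0.18 in the same order. Anti-PD-1 4R was the lowest tumour on that scale too, at 2.985, and combination 4R the highest, at 3.89.

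**Figure D3:**
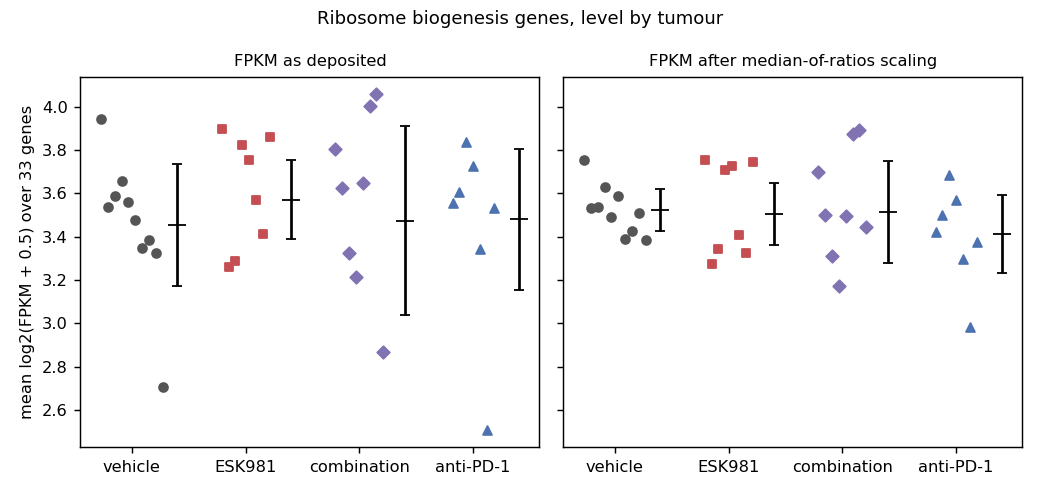
Joint level of the 33 ribosome biogenesis genes (y axis, mean log2(FPKM + 0.5)) in each tumour by group, as deposited (left) and after median-of-ratios scaling (right), with the mean and SD over 5 mice as a bar beside each group. The 4 groups overlap on both scales, and vehicle 5R (2.70) and anti-PD-1 4R (2.51) are lowest as deposited.

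Between the flanks of 1 mouse the joint level differed by a median of 0.177 in log2 (0.0364 to 0.838, 13 mice with 2 tumours). The 4 group means lie closer together than that, but means over 5 mice vary less than single tumours. The 2 spreads therefore cannot be compared directly. The left tumour was higher in 8 mice and the right in 5. For the single genes the median left-right difference was 0.249, next to 0.244 for all genes tested. The largest gaps were in anti-PD-1 mouse 4 (3.35 left, 2.51 right), ESK981 mouse 1 (3.90 and 3.26) and vehicle mouse 5 (3.32 and 2.70). Of these right-flank tumours, 2 are libraries with a low scale factor, and after scaling the 3 gaps were 0.313, 0.484 and 0.124.

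Myc itself did not differ between groups past the threshold. The mouse Myc row ran from 4.31 to 17.2 FPKM in vehicle tumours (median 5.97), 3.79 to 8.44 with ESK981 (5.80), 2.93 to 6.93 in the combination (4.61) and 3.30 to 8.39 with anti-PD-1 (6.05). Its log2 difference from vehicle was -0.15 ± 0.21 with ESK981 (adjusted p = 0.644), -0.54 ± 0.21 in the combination (adjusted p = 0.296) and -0.18 ± 0.21 with anti-PD-1 (adjusted p = 0.724). Combination tumours lay low, and all groups overlapped. Mycn and Mycl stayed below 0.1 FPKM in every tumour. Against Myc, all 33 genes had a positive slope over the 20 mice with a group term, as 83.7% of all genes did. The median slope was 0.43 in log2 per log2 of Myc, against 0.17 over all genes, and 0 of 33 were called (0.0% of 15845 genes), with 8 at an unadjusted p under 0.05, a threshold that 6.12% of all genes passed. The largest slopes were those of Rrp12 (0.58 ± 0.29), Dkc1 (0.53 ± 0.25), Mybbp1a (0.53 ± 0.23) and Polr3d (0.51 ± 0.21), and the lowest those of Polr3g (0.12 ± 0.18), Polr1c (0.16 ± 0.18), Nhp2 (0.21 ± 0.24) and Pes1 (0.24 ± 0.19). Their adjusted p was at least 0.743 (limma). On scaled values the median slope was 0.07, against -0.01 over all genes. The correlation with Myc over mice was positive for 33 of 33 genes unscaled (80.2% of all genes) and for 21 of 33 scaled (49.2%). Ubtf had the highest correlation with Myc on both scales (r = 0.528 and 0.508) and Polr3g the lowest (0.0297 and -0.282).

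By tumour, the joint level and Myc lay apart in some extreme tumours and together in others. Vehicle 4L had by far the most Myc (17.2 FPKM) and a joint level of 3.35, below the vehicle median. Combination 4R and 4L had the highest joint levels (4.059 and 4.002) at 6.52 and 5.09 FPKM of Myc. ESK981 1L combined a low Myc (3.79 FPKM) with a high joint level (3.90), and combination 5R was lowest in Myc (2.93 FPKM) and near the lowest in joint level (2.87). Combination 5R is a library with a low scale factor (0.649). After scaling it held 4.51 FPKM of Myc and a joint level of 3.44, near the combination medians of 4.53 and 3.50. Pearson's r between joint level and Myc was 0.168 over 33 tumours (Spearman's rho 0.234) and 0.361 over 20 mice (rho 0.38), or 0.252 without the 2 mice farthest from the median Myc. Among the 15 treated mice, all on 1 flow cell, r was 0.503, and 0.288 without 2 mice. With each of the 20 mice taken as its deviation from the group mean, r was 0.427, and 0.598 without 2 mice. On scaled values the same relations gave -0.0384 over tumours, 0.137 over mice, 0.224 in treated mice and 0.144 for the deviations. Both measures come from the same libraries, and the relation is given as a description.

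**Figure D4:**
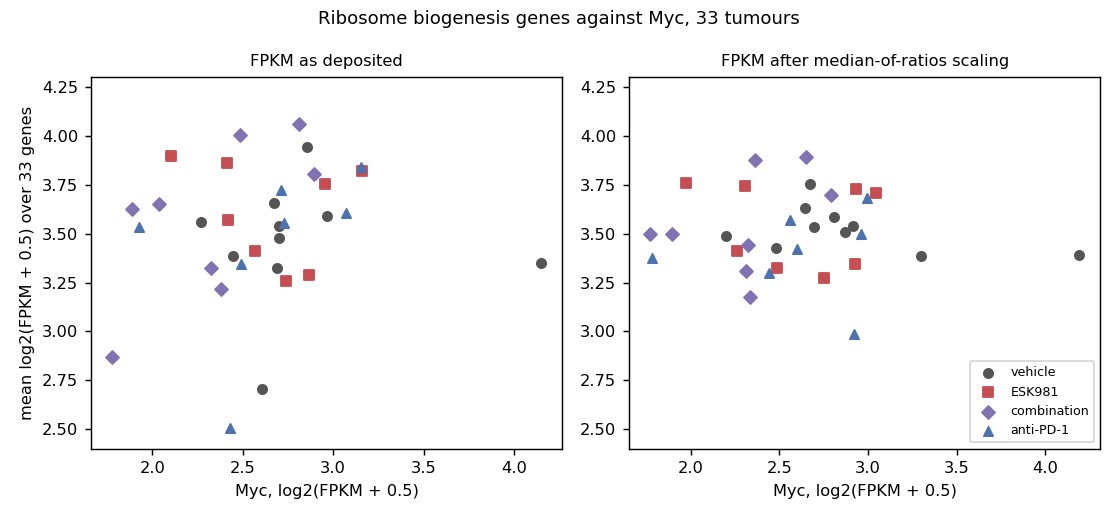
Joint level of the 33 ribosome biogenesis genes (y axis, mean log2(FPKM + 0.5)) against Myc (x axis, log2(FPKM + 0.5)) in 33 tumours by group, as deposited (left) and after median-of-ratios scaling (right). Vehicle 4L has the most Myc and a joint level of 3.35, below the vehicle median.

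Proliferation genes gave larger correlations with the joint level than Myc did over all mice, and the gap was small in some subsets. Over 20 mice, r between the joint level and the log2 of the summed FPKM of 12 proliferation genes (Mki67, Top2a, Rrm2 and others) was 0.505 and rho 0.701, and r was 0.826 without the 2 mice farthest from the median. Among the 15 treated mice r was 0.529, next to 0.503 for Myc, and 0.84 next to 0.288 without 2 mice. With each mouse taken as its deviation from the group mean, r was 0.575, next to 0.427 for Myc. Without 2 mice these were 0.604 and 0.598. With the joint level scaled and the proliferation sum left as deposited, r was 0.433 and rho 0.483. The scaled relation with Myc had both sides scaled, so that those 2 values are not alike. ESK981 1R and 2R stood apart, with sums of 19.8 and 20.7 FPKM against at least 65.4 in all other tumours, while their joint levels were 3.26 and 3.29. Those were the lowest joint levels of the ESK981 group, yet above those of vehicle 5R, combination 5R and anti-PD-1 4R, whose sums were 78.4, 81.2 and 65.4 FPKM. None of the 12 proliferation genes was called with ESK981 against vehicle (0 of 12). The difference between the correlations with proliferation genes and those with Myc was not tested.

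**Figure D5:**
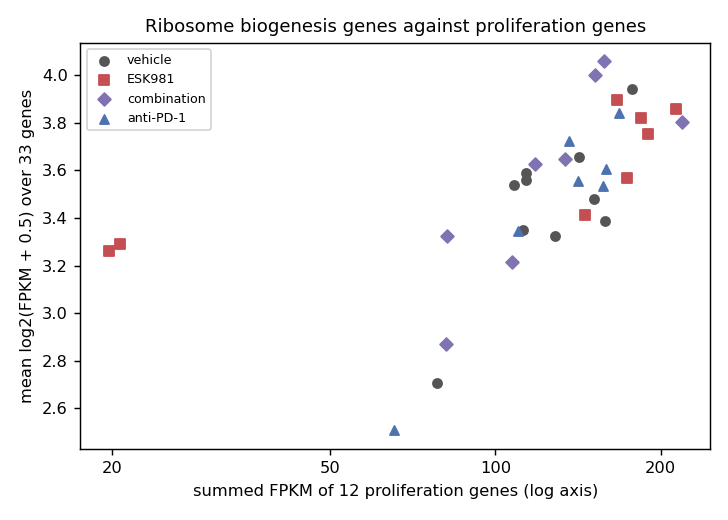
Joint level of the 33 ribosome biogenesis genes (y axis, mean log2(FPKM + 0.5)) against the summed FPKM of 12 proliferation genes (x axis, log scale) in 33 tumours by group. ESK981 1R and 2R lie apart on the left at 19.8 and 20.7 FPKM, and the others run from low on both axes to high on both.

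Other genes of the pathway passed the test in 2 cases. Of 118 further genes of RNA polymerases I and III, the small subunit processome, large-subunit assembly and the RNA exosome, 117 were tested. With ESK981, 2 were higher and 0 lower: Polr3f, a polymerase III subunit, by 0.47 ± 0.14 (adjusted p = 0.0326), and Taf1b, a part of the polymerase I promoter selectivity factor, by 0.49 ± 0.16 (adjusted p = 0.046). Of all genes tested, 14.4% were called with ESK981 in either direction. In the combination and with anti-PD-1, 0 of 117 were called, next to 0.606% and 0.783% of all genes. The median differences were 0.16, 0.07 and 0.08, close to those of the 33 genes with ESK981 and in the combination. On scaled values 9 were higher and 6 lower with ESK981, 4 lower in the combination and 2 lower with anti-PD-1, and the medians were 0.01, 0.04 and -0.05. Of all genes, 14.4%, 3.39% and 1.53% were called lower on that scale in the 3 comparisons. The share of all genes called higher on that scale is not given here, so that the 9 higher genes are a count only. The median slope of the 117 genes on Myc was 0.31, positive in 116 of 117, where all genes had 0.17 and 83.7%. Scaled, it was 0.05, positive in 78 of 117, where all genes had -0.01 and 48.8%.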

How the data were processed

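RNA was sequenced from 33 tumours of 20 mice. The authors deposited 1 table of FPKM per gene and tumour. Per the submitters' processing notes, STAR and featureCounts were used with mm10. Versions, settings and the annotation were not given in the sources used here. Total RNA was depleted of ribosomal RNA by a RiboErase kit, per the labels' protocols. Depth came from the 41427 of 48795 genes whose identifier and version matched GENCODE M21. Gene lengths of M21 turned their low FPKM values back into whole fragments (within 0.01). Members listed under another version, such as Nolc1, did not return whole fragments. Median depth was 1.54e+07 fragments in vehicle tumours, 2.47e+07 with ESK981, 2.06e+07 in the combination and 2.07e+07 with anti-PD-1. The part of depth in the differences was not tested.

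Genes with at least 0.5 FPKM in at least 5 tumours were tested. Values were log2(FPKM + 0.5), averaged over the tumours of a mouse. limma 3.58.1 (R 4.3.3), with a mean-variance trend, was fitted over 4 groups of 5 mice and its two-sided p-values were adjusted by Benjamini-Hochberg over all genes, with calls at an adjusted p under 0.05. A fold change on this scale understates that of low genes. Slopes on Myc had a group term. The script was tested on simulated data.

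Alternatives were other scalings, pseudocounts and filters, a flow cell term, single tumours with the mouse as a random effect, fewer groups, and leaving out mice or libraries. Leaving out vehicle 4L, the Myc slope in treated groups without ESK981 1R and 2R, the flow cell term on scaled values and the tumour-level separation on scaled values were added after seeing the data. Members and lists were chosen with earlier results of these data known. Values are printed for the members with the highest and lowest levels of a role, up to 4 with the smallest adjusted p in each direction of a comparison, those whose call changed under an alternative, and the extremes of the Myc slope. Replicate mice of 1 cell line do not stand for other tumours.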

Additional observations from a re-analysis of the deposited data

Results flagged for a closer look

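In 13 of 140 groups of 5 mice (33 genes, Myc and the joint level, 4 groups), the highest or lowest mouse lay far from the others of its group. Chance flags about 1 in 20 groups. Values are mean log2(FPKM + 0.5) of a mouse. Anti-PD-1 mouse 4 was the low mouse in 10 of them: Nob1 at 2.47 (the others from 2.89 to 2.98), Utp20 at 1.83 (2.79 to 3.03), Ddx21 at 3.48 (4.58 to 4.76), Pes1 at 3.35 (3.79 to 3.91), Rrn3 at 2.99 (3.68 to 3.91), Nop16 at 2.21 (2.86 to 3.12), Nop58 at 2.15 (2.90 to 3.11), Ncl at 5.56 (5.83 to 5.92), Wdr43 at 3.33 (4.2 to 4.45) and Heatr1 at 2.31 (3.24 to 3.46). Its right tumour is a library with a low scale factor (0.691). Ubtf was low in combination mouse 5, at 2.88 (3.42 to 3.58), and Rrn3 in vehicle mouse 5, at 2.92 (3.46 to 3.60). Those mice hold the other libraries with low scale factors (0.649 and 0.597). Ppan was high in ESK981 mouse 3, at 3.81 (3.16 to 3.32), with no low scale factor there. The part of library quality in these values was not tested.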

How the results depend on the processing

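The members called against vehicle depended on scaling and on a few libraries. With ESK981, in the combination and with anti-PD-1, the counts were 4, 3 and 2 after median-of-ratios scaling, 4, 2 and 2 after scaling to the protein-coding total, 13, 11 and 7 with a flow cell term, and 1, 2 and 1 with that term on scaled values (Polr1a in all 3, by 0.72, 0.72 and 0.65, and Heatr1 in the combination, by 0.95). Without the 3 libraries of low scale factor they were 3 with ESK981 and 3 with anti-PD-1 (Gar1 and Fbl lower, Polr1a higher), and with only the groups compared 2 (Gar1 lower, Nop14 higher) and 1 (Gar1 lower). Leaving out 1 mouse gave 0 to 1 with ESK981 and with anti-PD-1, the 1 being Gar1 without combination mouse 5 (adjusted p = 0.048 and 0.0398), and 0 in the other comparisons. With the flow cell term, resting on the 1 vehicle tumour that shares its flow cell with treated ones, the medians moved to 0.92, 0.85 and 0.67, the interaction to -0.80 with 3 members called (Bop1, Rrn3 and Polr1a), and all 32 negative differences among the 99 against vehicle turned positive, 3 of them called: Rrp12 with ESK981 at 1.27, and Nhp2 at 0.98 and Nop56 at 1.07 with anti-PD-1. The median Myc slope was 0.0656 after median-of-ratios and 0.117 after protein-coding scaling, 0.153 over single tumours, 0.125 with the flow cell term and 0.174 without the 3 libraries, and 0.271 to 0.625 with 1 mouse left out.

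Genes called over the whole table ranged over all alternatives from 1054 to 5786 with ESK981 (2278 as reported), 54 to 4467 in the combination (96) and 29 to 4397 with anti-PD-1 (124). No paired analysis was possible because the groups come from different mice and the mouse numbers pair nothing across groups.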
